A study of Homo sapiens with 2 samples.

Results

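The stretch of 28S rRNA described here begins directly after position 2350 and ends directly before position 2902. It covers about domain III and the start of domain IV, up to the base of the expansion segment ES27L. It was taken by position alone, as every row of the deposited rRNA table between these bounds, and its last nucleotide is called the end position below. The table lists 475 positions of the stretch, 86.2% of its nucleotides, out of 3357 listed in 28S rRNA and 5047 in 18S and 28S rRNA together. The larger of both counts is at least 5 reads at every listed position, so the 76 unlisted positions of the stretch fell below that. No rRNA sequence or structure was used here, so the assignment to domain III and to the base of ES27L is that of the name and was not tested.

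The cells were A549, an established line of human lung carcinoma epithelium. Mock cells received Lipofectamine alone, and treated cells received poly I:C, which is synthetic double-stranded RNA, at 1 µg/mL in the same reagent for 1 h. RNA ends carrying a 2′,3′-cyclic phosphate were joined to an adapter by the RNA ligase RtcB, amplified and sequenced, and each count is the number of reads assigned to an rRNA position. The design asks where such ends arise during poly I:C treatment. Each condition is 1 library, so there is no replicate spread, no test between conditions and no p-value.

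28S rRNA is the main RNA of the large ribosomal subunit. Domain III is a compact part of it on the solvent side, domain IV forms much of the surface that faces the small subunit, and ES27L is a long, mobile arm of domain IV found in eukaryotes that can reach the exit of the peptide tunnel. Double-stranded RNA activates the oligoadenylate synthetases, whose product switches on RNase L, an endoribonuclease that cuts rRNA within ribosomes and leaves cyclic phosphates. Other RNases and chemical hydrolysis leave the same end. The labels describe no sample lacking a nuclease, and no position is assigned to one here.

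Listed reads numbered 3079346 (mock) and 3764202 (poly I:C). Counts were divided by these sums, and a ratio is always poly I:C over mock after that division. Levels are given as RPM, reads per 1000000 listed reads. The 95% interval in brackets after a ratio, the counting interval, takes reads as independent and covers counting error only, which can be too narrow for amplified reads without molecular identifiers. A position was compared where its summed reads reached 100, which 250 of the 475 here did. They held 99.5% of the stretch's reads under either condition. The other 225 had 4093 reads in all (mock) against 3832 (poly I:C), and their summed ratio was 0.766 (0.733 to 0.801). Higher means a ratio of at least 2 and lower a ratio of at most 0.5, rules of size with no test behind them. Over all compared positions of both rRNAs the median log2 ratio was -0.31, and values here are to be read against that shift.

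The stretch held a smaller share of the listed reads after poly I:C, and 1 position made up nearly all of that difference. Its 825042 mock reads were 26.8% of the library (26.7 to 26.8, exact binomial interval), and its 716591 reads after poly I:C were 19.0% (19.0 to 19.1). The ratio was 0.711 (0.708 to 0.713). A share depends on the other rRNA positions: 18S rRNA went from 23.5% to 34.3% of listed reads, and all of 28S rRNA had a ratio of 0.858. The 10 most frequent positions of either library in 18S and 28S rRNA include the end position and position 2847. With all of them left out, the rest of the stretch held 10.8% and 11.1% of the remaining reads, at a ratio of 1.03. With all positions in, the difference was -7.76 percentage points, of which the end position alone accounted for -7.02. Without the end position the shares were 7.91% and 7.18%, at a ratio of 0.907 (0.902 to 0.912). Without position 2847 as well they were 5.44% and 5.46%, and the ratio of 1.00 (0.997 to 1.01) no longer lay below 1. Under this scaling the reads of the remaining 473 positions were level in sum, but that depends on which positions are left out. Without the 5 most frequent positions of the stretch the ratio was 0.950 (0.942 to 0.959). Without the end position and the positions at least 10-fold higher it was 0.847 (0.842 to 0.852).

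Most reads of the stretch fell on 5 positions, the same 5 under both conditions. Positions 2396, 2433, 2505 and 2847 and the end position together held 89.0% of the stretch's reads in mock cells and 85.3% after poly I:C. The end position, directly before 2902, had 581421 reads (mock) against 446484 (poly I:C), which is 70.5% and 62.3% of the stretch. Position 2847 followed with 76209 against 64714 reads, at a ratio of 0.695 (0.687 to 0.702). Position 2396 had 25149 against 22693 reads, at a ratio of 0.738 (0.725 to 0.752). Both ratios and that of the end position, 0.628 (0.626 to 0.631), stayed below 1 under each of the 4 other scalings tried.

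Positions 2433 and 2505 did not move with the others. Position 2433 went from 29633 to 50965 reads, or from 9623 to 13539 RPM, a ratio of 1.41 (1.39 to 1.43). Position 2505 had 21809 against 26229 reads, and its ratio of 0.984 (0.966 to 1.00) turned above 1 under all 4 other scalings. All 5 frequent positions lay within the 2-fold rule, but their ratios spread from 0.628 to 1.41 and their counting intervals did not overlap one another. Next in frequency, position 2846 had 7980 against 8276 reads (ratio 0.848) and position 2589 had 6011 against 7586 (ratio 1.03, 0.998 to 1.07). The ratio of position 2846 turned above 1 without scaling and under scaling by the median ratio.

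**Figure D1:**
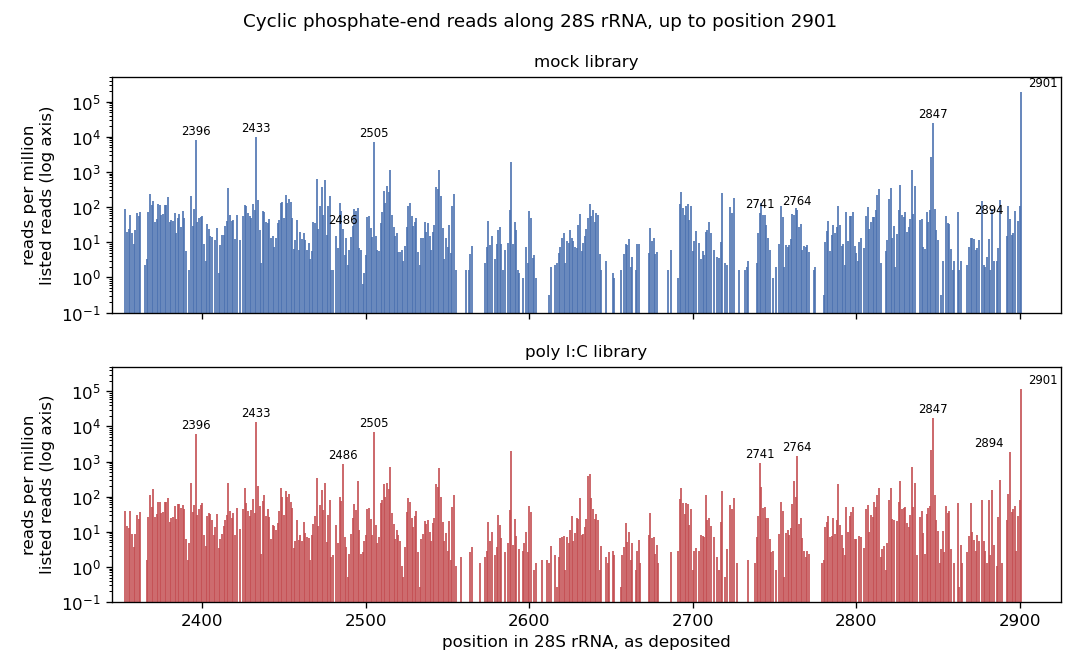
RPM at each listed position of the stretch (log axis), with mock above and poly I:C below; positions without reads have no line and the 9 labelled positions are those of the text. Positions 2396, 2433, 2505 and 2847 and the end position are the tallest in both panels, while position 2894 goes from 45.5 to 1818 RPM and position 2486 from 24.4 to 850.

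Among the 10 most frequent positions of each condition, 7 were shared. Positions 2741, 2764 and 2894 were among the 10 only after poly I:C, and positions 2515, 2545 and 2834 only in mock cells. The last 3 had 3412, 3529 and 3514 reads in mock cells against 2557, 2519 and 2578 after poly I:C. Their ratios of 0.613, 0.584 and 0.600 lay between 0.5 and 1, so they lost rank without passing the rule for lower.

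By the rule of size, 19 of the 250 compared positions were higher, or 7.60%, against 8.18% of all 2750 compared positions of both rRNAs. Another 31 were lower, or 12.4%, against 10.1%, and 200 lay between. At least 10-fold higher were 4 positions, or 1.60%, against 2.84%, and 0 were at least 10-fold lower, against 0% of all. These shares lie near the background. Of the compared positions 185 had a ratio below 1, or 74.0%, against 67.4% of all, and the median log2 ratio was -0.46.

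Both scaling and read minimum shaped these counts. Higher positions made up 38.0% of the 50 calls under the main scaling, against 44.8% over all compared positions. Scaled to 28S reads alone, 26 positions were higher and 13 lower, a split of 66.7% (67.2% over all), against 10.3% and 5.02% of all positions called. Without scaling the counts were 26 and 9, a split of 74.3% (74.7% over all), against 11.2% and 3.78% called. Under scaling by the median ratio they were 26 and 7, a split of 78.8% (77.8% over all), against 11.5% and 3.27% called. The 4 positions at least 10-fold higher kept that call under every scaling tried.

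At lower minimums the stretch had fewer higher and more lower positions than the background. Of the 388 positions with at least 20 reads, 7.73% were higher and 19.6% lower, against 12.2% and 12.6% of all. Of all 475 listed positions, 10.5% were higher and 23.4% lower, against 15.2% and 14.3%. Among the 46 positions with at least 1000 reads the order turned for higher positions only, at 9 (19.6%) against 12.1%. The 6 lower positions there still made up a larger share than the 7.6% of the background. A 4-fold rule called 9 higher (3.60%, against 4.04%) and 0 lower (against 0.145%). Summed with their neighbours at 1 nt, 7.40% of positions were higher, against 8.34%. None of these differences from the background was tested.

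The 4 positions at least 10-fold higher moved from ranks 86 to 212 of the 475 listed positions in mock cells to ranks 8 to 11 after poly I:C. Position 2894 had 140 against 6842 reads, or 45.5 against 1818 RPM, a ratio of 40.0 (33.8 to 47.6). It went from rank 155 among the positions of the stretch to rank 8. Position 2486 had 75 against 3198 reads, a ratio of 34.9 (27.7 to 44.5), and went from rank 212 to rank 11.

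Position 2764 had 252 against 5246 reads, at a ratio of 17.0 (15.0 to 19.4), and went from rank 86 to rank 9. Position 2741 had 208 against 3348 reads, at a ratio of 13.2 (11.4 to 15.2), and went from rank 105 to rank 10. Together the 4 had 675 reads in mock cells and 18634 after poly I:C, 0.0818% and 2.60% of the stretch. Each had at least 75 mock reads, so none of these ratios rests on an absence of mock reads. Among the 1660 compared 28S positions their ratios ranked 30, 35, 49 and 58, so stronger ratios lay elsewhere in 28S rRNA.

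Each of the 4 stood above its immediate neighbours after poly I:C and not in mock cells. After poly I:C the larger of the adjacent counts was 6.58% of the peak at position 2894, 6.96% at 2764, 8.85% at 2486 and 20.6% at 2741. In mock cells the larger neighbour exceeded the position itself, at 243%, 118%, 324% and 188% of its reads in the same order. This comparison is made within each library, so no scaling can change it. The 4 were picked for their ratio between libraries, so the contrast follows in part from that choice and is no separate support. At the 5 frequent positions the larger neighbour held from 0.216% to 10.5% of the peak in mock cells and from 0.225% to 12.8% after poly I:C. The upper values are those of position 2846 beside 2847.

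**Figure D2:**
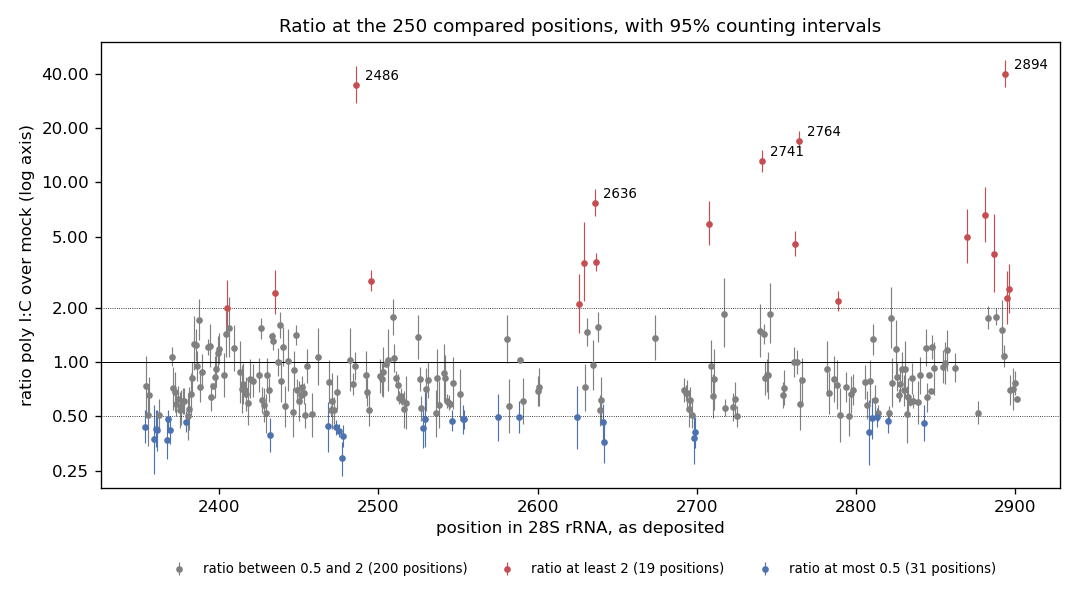
Ratio of poly I:C over mock (log axis) at the 250 compared positions along the stretch, with 95% counting intervals as bars; red marks the 19 ratios of at least 2, blue the 31 of at most 0.5, grey the other 200. Positions 2894, 2486, 2764 and 2741 lie above 10, and the lowest ratio is 0.292 at position 2477.

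The other 15 higher positions went from 1791 to 8011 reads in sum, a ratio of 3.66 (3.48 to 3.85). Position 2636 led them with 154 against 1448 reads, at 7.69 (6.51 to 9.14). Position 2881 had 38 against 304 reads (ratio 6.54, 4.66 to 9.43), and position 2708 had 60 against 433 (ratio 5.90, 4.50 to 7.87). Position 2870 had 41 against 249 reads (ratio 4.97, 3.56 to 7.09), and position 2762 had 190 against 1057 (ratio 4.55, 3.90 to 5.34). Position 2887, with 21 against 102 reads, stood at 3.97 (2.47 to 6.69). These intervals widen as mock reads become few.

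The read minimum bears on the weaker of these. Of the 19 higher positions, 6 had fewer than 50 mock reads and passed the minimum of 100 reads through their poly I:C counts. With a minimum of 50 mock reads alone, chosen after seeing the data, 13 of 244 positions were higher (5.33%, against 4.32% of all) and 38 lower (15.6%, against 12.4%). A counting interval wholly above 2 was met by 13 of the 250 compared positions (5.20%, against 5.82% of all). One wholly below 0.5 was met by 8 of them (3.20%, against 3.27%).

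The higher positions fell into 10 groups of positions at most 10 nt apart, of which 6 were a single position. The groups were described after their values were seen. The largest held positions 2881, 2887, 2894, 2895 and 2896, which went from 304 to 7559 reads in sum. Position 2894 alone had 140 and 6842 of these. Positions 2626, 2629, 2636 and 2637 formed another, with 600 against 3337 reads and a ratio of 4.55 (4.17 to 4.97). Positions 2762 and 2764 lay 2 nt apart and had a joint ratio of 11.7 (10.6 to 12.9), with 5246 of their 6303 poly I:C reads at position 2764. Positions 2486 and 2495 lay 9 nt apart, with a joint ratio of 9.32 (8.38 to 10.4) and 3198 of their 4225 poly I:C reads at position 2486. Such sums mostly restate the positions at least 10-fold higher.

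The lower positions had moderate ratios and, as a set, more mock reads than the higher ones. The latter follows in part from the rules. A position with at least 100 reads and a ratio of at most 0.5 must have more mock than poly I:C reads. The 31 went from 11849 to 6373 reads in sum, a ratio of 0.440 (0.427 to 0.454). Position 2477 had the lowest ratio of the stretch, 0.292 (0.234 to 0.362), on 325 against 116 reads. Position 2475 was the most frequent of them, with 1812 against 922 reads (ratio 0.416, 0.384 to 0.451). It left the rule under scaling by the median ratio and without scaling. Ratios were 0.362 (0.275 to 0.473) for position 2642, 0.369 (0.289 to 0.468) for position 2367 and 0.378 (0.273 to 0.517) for position 2698.

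Lower positions formed 12 groups by the same distance, of which 5 were a single position. The largest held 8 positions between 2353 and 2379, with 2657 against 1445 reads and a ratio of 0.445 (0.417 to 0.475). Its ratio was 0.519, 0.544 and 0.551 when scaled to 28S reads alone, unscaled and scaled by the median ratio, outside the rule for lower. The 5 lower positions between 2468 and 2478 had 4004 against 1996 reads and a ratio of 0.408 (0.386 to 0.430), which was 0.505 under scaling by the median ratio. Position 2486, at a ratio of 34.9, lies 8 nt past that group. From position 2526 to 2575, 20 compared positions in a row had ratios below 1 under the main scaling, between 0.432 and 0.872. This was the longest such run, picked after the values were seen, where 74.0% of compared positions lay below 1. It is broken when scaled to 28S reads alone, unscaled or scaled by the median ratio, since its highest ratio then passes 1.

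Up to position 2600, 4 of 140 compared positions were higher (2.86%) and 21 lower (15.0%), against 8.18% and 10.1% of all compared positions. From 2601 on, 15 of 110 were higher (13.6%) and 10 lower (9.09%). Under scaling by the median ratio the counts were 6 and 5 before the boundary and 20 and 2 after it. The boundary was set after the values were seen and the difference was not tested. The read minimum also feeds it. From 2601 on, the higher positions 2626, 2629, 2870, 2881 and 2887 had 41, 21, 41, 38 and 21 mock reads. They passed the minimum through their poly I:C counts, as did position 2405 before the boundary, with 48 mock reads. The median ratios of both parts were 0.701 and 0.776.

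Windows of 50 nt showed how far single positions set the sums. Of the 11 windows, 7 had a ratio below 1. By the rule of size 1 was higher (9.09%, against 20.7% of 135 windows of both rRNAs with at least 100 reads) and 0 were lower (against 1.48%). With windows of 25 nt, 2 of 22 were higher and 1 lower, against 18.7% and 1.95%, and with windows of 100 nt 0 of 6 were higher or lower, against 20% and 1.43%. The higher window, positions 2751 to 2800, had 3731 against 9920 reads, at a ratio of 2.18 (2.09 to 2.26). Without position 2764 its ratio was 1.10 (1.05 to 1.15).

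Under the main scaling the windows of positions 2401 to 2450 and 2701 to 2750 turned direction when 1 position was left out. Their ratios of 1.31 and 1.56 became 0.910 without position 2433 and 0.860 without position 2741. Scaling to 28S reads alone, no scaling and scaling by the median ratio multiply every ratio by 1.17, 1.22 and 1.24. Under these both windows stay above 1 with that position left out, so neither turns. The window of positions 2601 to 2650, at 1.67 (1.59 to 1.75), stood at 1.33 without position 2637 and at 0.842 without position 2636 as well.

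The last window turned the other way. From position 2851 to the end position it had 584974 against 458507 reads, at a ratio of 0.641. Without the end position the remaining 3553 and 12023 reads gave 2.77 (2.67 to 2.87), and without position 2894 as well the ratio was 1.24. The most frequent position of the stretch and the one with its highest ratio thus lay 7 nt apart.

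**Figure D3:**
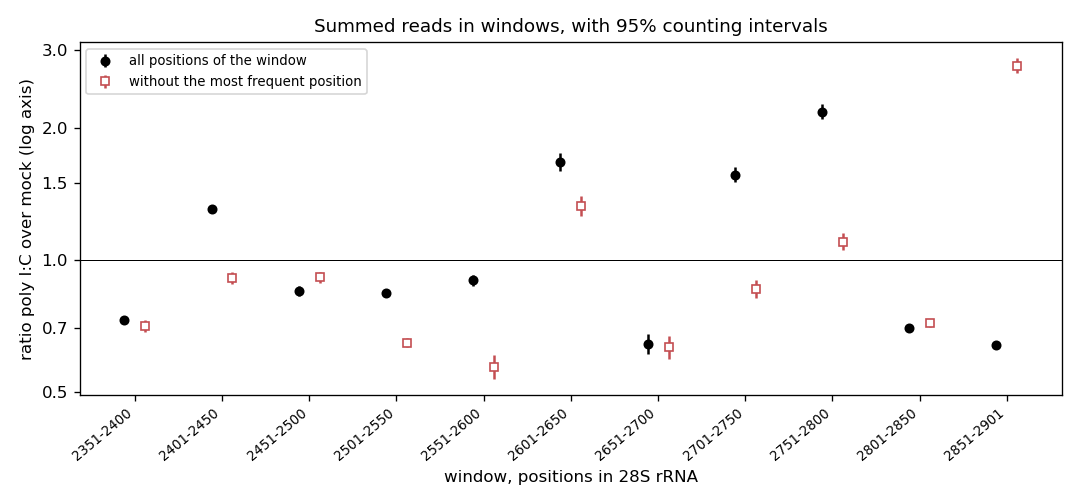
Ratio of summed reads (poly I:C over mock, log axis) in 11 consecutive windows of the stretch, with 95% counting intervals; filled circles are all positions and open squares leave out the most frequent position of each window. The last window goes from 0.641 to 2.77, and that of positions 2751 to 2800 from 2.18 to 1.10.

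Near the end position the ratio changed from one nucleotide to the next. Position 2893 had 340 against 450 reads, at a ratio of 1.08 (0.938 to 1.25). Position 2894 stood at 40.0, while ratios were 2.27 (1.64 to 3.21) for position 2895 and 2.56 (1.88 to 3.53) for position 2896. Positions 2897, 2899 and 2900 had ratios of 0.704, 0.711 and 0.766, nearer to that of the end position. Position 2898 between them went the other way but was too rare to be compared. It had 0 against 11 reads, a ratio of 3.00 with the mock count set to a floor of 3 reads. Its counting interval starts at 2.05. Position 2902, just outside the stretch, had 6180 against 4114 reads and a ratio of 0.545 (0.523 to 0.567). At the other bound, position 2353 was the first listed inside, with 270 against 145 reads, and position 2350 the last listed outside, with 70 against 20.

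**Figure D4:**
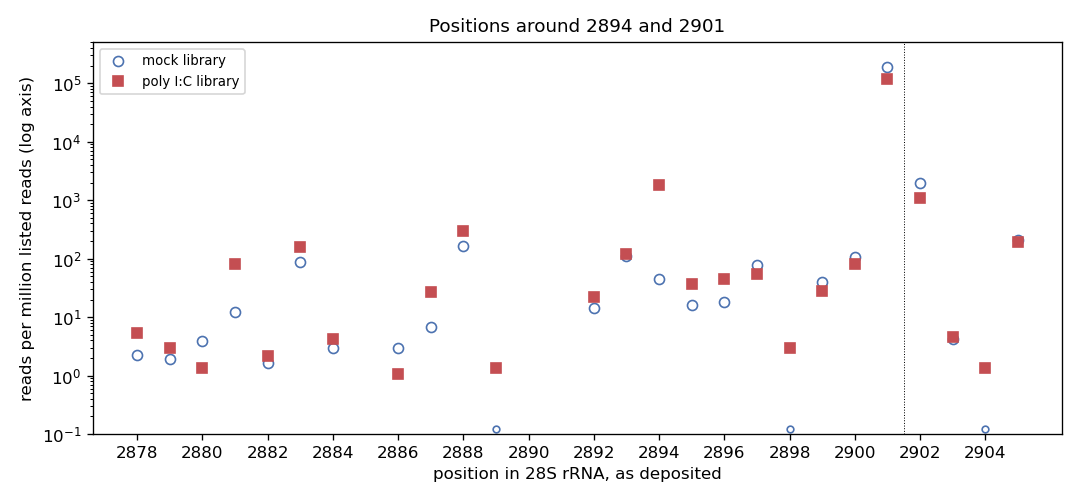
RPM (log axis) at listed positions 2878 to 2905 in mock cells (open circles) and after poly I:C (filled squares); small open symbols at the foot of the axis mark 0 reads and the dotted line the end of the stretch. Position 2894 stands at 45.5 and 1818 RPM, while the end position and position 2902 lie lower after poly I:C, at ratios of 0.628 and 0.545.

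Ratios also differed between adjacent nucleotides around position 2847. Of the compared positions within 10 nt of it, position 2843 had the lowest ratio, 0.460 (0.365 to 0.577), and position 2844 next to it stood at 1.21 (0.949 to 1.54). Position 2848 had the highest, 1.22 (1.04 to 1.42). Positions 2852 to 2854 did not reach the minimum for comparison and had higher ratios. Position 2852 had 1 against 12 reads (9.82, 1.45 to 420), and position 2853 had 9 against 39 (3.54, 1.69 to 8.32). With 0 against 10 reads, position 2854 stood at 2.73 by the floor of 3 mock reads, and its counting interval starts at 1.83. Not all rare positions there were higher. Position 2842 had 20 against 9 reads (0.368, 0.148 to 0.846), and position 2850 had 36 against 40 (0.909, 0.565 to 1.47).

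Summed mock reads per window were fewest in the middle of the stretch. The 4 windows from position 2601 to 2800 held from 2568 to 3731 mock reads each, against 8472 to 584974 in the other 7. After poly I:C the 4 windows held from 2579 to 9920 reads, which overlaps the 9304 to 458507 of the others. The gap in mock reads rests in part on single positions. Without the most frequent position of each window, the 4 held from 2184 to 3479 mock reads. The windows of positions 2551 to 2600 and of 2851 to the end position then held 2461 and 3553, so the 4 no longer stood apart. Unlisted positions were most numerous from 2651 to 2700, at 17 of 50. At 24 listed positions mock cells had 0 reads and poly I:C cells at most 30. At 15 others poly I:C cells had 0 reads and mock cells at most 11. None of these 39 positions reached the minimum for comparison.

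The stretches of equal length on either side were set beside this one. Before it, 153 of 368 listed positions were compared, with a median log2 ratio of -0.50. Of the 153, 7 were higher (4.58%) and 20 lower (13.1%), against 8.18% and 10.1% of all compared positions. After it, in the direction of ES27L, 160 positions were listed and 35 compared, with a median log2 ratio of 4.70. Of the 35, 22 were higher (62.9%) and 0 lower (0%). Of these 22, 21 had fewer than 50 mock reads and so could be compared only because they were high after poly I:C. With a minimum of 50 mock reads, 13 positions after the stretch had a median log2 ratio of 0.064, against -0.51 over 244 positions in the stretch. The difference between the stretch and its flanks was not tested, since positions within 1 library are not replicates.

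Levels at the positions of the stretch were alike between conditions. Over its 475 listed positions, log2 of RPM plus 1 had a Pearson correlation of 0.918 and a Spearman correlation of 0.932, and of 0.899 and 0.930 without the 5 frequent positions. Before the stretch the Pearson and Spearman values were 0.909 and 0.876 over 368 positions, and after it 0.618 and 0.598 over 160. Over all 3357 listed 28S positions they were 0.870 and 0.883. These describe positions that share a library and its depth, and neighbouring positions are not independent.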

How the data were processed

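Cyclic phosphate-bearing RNA ends of A549 cells were measured in 1 mock and 1 poly I:C library, and 28S positions 2351 to 2901, 551 nt, are described. The deposited values used are counts, reads per position of 18S and 28S rRNA, per the file headers, neither normalised nor pooled. The authors' deposited ratio (fold) adds 0.5 to both counts and equalled the recomputed value in every row. It is not scaled and, like the authors' deposited score, was not used for a result. Per the submitters' processing notes the build was hg19. Aligner, counting step, rRNA reference, origin of the numbering and the fragment end marked by a position: not given in the sources used here, and positions are printed as deposited. The annotated 28S copies in RefSeq (GRCh38.p14) are 5054 to 5077 nt long, shorter than the last listed 28S position, 5097, so the deposited numbering follows none of them and was not tied to a gene copy.

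Counts were scaled to each library's sum of listed 18S and 28S reads. Ratios carry exact conditional binomial intervals and shares exact Clopper-Pearson intervals at 95%, computed with Python 3.11.15 and scipy 1.17.1 and tested on simulated data. A count of 0 entered a ratio as 3 reads. Named positions are the 10 most frequent of each library, the 10 highest and 10 lowest ratios, those at least 10-fold changed, those within 10 nt of the most frequent pair, and the edges. Others were chosen after their values were seen. Members, rules and lists were chosen with earlier results of these data known. Alternatives were 4 scalings, read minimums, thresholds, summing of neighbours, window sizes and flank lengths.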

Additional observations from a re-analysis of the deposited data

How the results depend on the processing

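Of 59 named positions, 31 had ratios beyond 2-fold in either direction, and none of these turned direction under the 4 other scalings. These 31 are not the 31 lower positions of the stretch. They include named positions too rare to be compared, such as 2852 and 2898, and position 2350 outside the stretch. Among them, 5 lower positions (2353, 2475, 2699, 2808 and 2843) left the rule under some scaling. Of the other named positions, 7 turned direction. The count of lower positions was 7 under scaling by the median ratio, 13 when scaled to 28S reads alone and 9 without scaling, and the median log2 ratio was then -0.15, -0.23 and -0.17. These scalings multiply every ratio by 1 factor. Counts of higher and lower positions were 30 and 76 at 20 reads, 9 and 6 at 1000 reads, and 50 and 111 over all listed positions. Summing neighbours gave 29 higher positions, a 4-fold rule 9 higher and 0 lower, and intervals wholly beyond 2-fold 8 lower. The stretch's share without its 2 most frequent positions was 5.44% (mock) and 5.46% (poly I:C), a ratio that turned to 1.00. Over 28S reads alone it was 35.0% and 29.0% (ratio 0.828). Without the 10 most frequent positions of either library, which include the 2 most frequent of the stretch, it was 10.8% and 11.1%, and the ratio turned to 1.03. Without the end position, chosen after seeing the data, it was 7.91% and 7.18% (0.907). The 5 next positions then held 66.0% and 64.0% of the remaining reads. Scaling by the median ratio and no scaling each gave 2 windows at least 2-fold higher and 4 below 1. Windows of 25 nt gave 2 higher, 1 lower and 15 below 1 of 22, and windows of 100 nt gave 0 higher and 3 below 1 of 6. Without the 2 most frequent positions of each window, also chosen later, 0 were higher. The median log2 ratio before the stretch was -0.19, -0.27 and -0.21 under the median, 28S and absent scaling, and that of the rest of 28S rRNA was -0.054, -0.14 and -0.074. Without the 10 most frequent positions in the scaling the latter was -0.32, with at least 50 mock reads -0.46 and with at least 50 poly I:C reads -0.27. After the stretch it was 0.064 with at least 50 mock reads. No paired analysis was possible because there is a single library per condition, which also leaves no replicate to omit. The planned comparison of bases at fragment ends was not run, since no rRNA sequence was used. For shifts not explained by an alternative's own construction, the cause was not tested. Depth limits the positions with few mock reads, such as position 2887 with 21.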
